A study of Mus musculus with 38 samples.

Results

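Lrch1, Aifm2, 8430408G22Rik, Fam214a and Mafa are genes with little history in research on muscle and torpor, and they were followed here by promoter. The table of transcription start site clusters held 10819 clusters, of which 9615 were near (up to 500 bp, same strand) the 5′ end of a GENCODE vM21 transcript, and 8 of these belonged to the 5 genes. The genes were chosen by their levels in the group sampled for torpor (Mid), which were high. Their Mid values are therefore descriptions without a test, and the 8 promoters are tested only where the Mid group did not enter. Relatives and listed genes were not chosen by this rule and are tested in Mid too. The lists were, however, drawn up with earlier results of these data known. The label "rising in torpor" held for 6 of the 8 promoters. It did not hold for Mafa, whose mean was lower in Mid than in Pre in both experiments, and the first promoter of Lrch1 differed little between Pre and Mid.

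The libraries were made by CAGE, which captures the capped 5′ ends of RNA and so counts transcripts by the promoter they started from. All were from the soleus, a slow postural muscle of the lower leg, of young adult male C57BL/6J mice, with 1 animal per library. Experiment #1 held mice on food before the fast (Pre, n = 4) and mice fed again on day 3 (Post, n = 4). On day 2 it held mice fasted at low ambient temperature, conditions that induce torpor (Mid, n = 8). It also held 3 day 2 groups in which torpor did not occur, namely fasted mice at high ambient temperature (HiT, n = 4), fed mice at low ambient temperature (Fed, n = 4) and fasted mice at low ambient temperature that were kept out of torpor by gentle touching (Dep, n = 4). By the study, Mid mice ranged widely in metabolic rate and were either in torpor or between bouts of it. Dep mice resembled in metabolism the Mid mice outside torpor. Ambient temperature was set the day before recording and then held constant. HiT minus Pre therefore combines fasting, ambient temperature and day, which cannot be told apart. Experiment #2 repeated Pre (n = 2), Mid (n = 5) and Post (n = 3) in other mice. The sources differ on food, since the series description feeds the HiT mice and the Fed label reads starvation, and the study's methods were followed. No genotype, transgene or drug differed between the groups.

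Fasting lowers insulin signalling in muscle, which lets FOXO transcription factors enter the nucleus and switch the tissue from sugar to fat. The mouse answers a fast in the cold with torpor, a drop in metabolism and body temperature that ends by itself. 8430408G22Rik is the older name of Depp1, a small protein known as a FOXO target induced by fasting. Aifm2, also called FSP1, reduces coenzyme Q at membranes and protects cells from ferroptosis, the death caused by iron-driven lipid peroxidation. Lrch1 is a leucine-rich repeat protein with a calponin homology domain that binds DOCK8, an activator of the GTPase CDC42. Fam214a is the mouse counterpart of Drosophila atossa, and Mafa is a large Maf transcription factor that drives the insulin gene in pancreatic beta cells.

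Lrch1, Aifm2 and Fam214a each used a pair of promoters, which are numbered from the 5′ end as P1 and P2. On mm10, Lrch1 P1 lay at chr14:74947538-74948051 on the minus strand, at the 5′ end of both coding transcripts. Lrch1 P2 lay at chr14:74899531-74900096, inside intron 1 of both, 47954 bases downstream of the peak of P1. Its peak was 203 bases upstream of the start of Lrch1-203, a transcript annotated without a coding sequence, and the annotated start codon of the gene lies upstream of P2. Aifm2 P1 lay at chr10:61715188-61715396 and P2 at chr10:61720502-61720698 on the plus strand, 5301 bases apart by their peaks. P2 lay in intron 1 of the P1 transcripts, and both sets share the start codon at 61725877. Fam214a P1 lay at chr9:74952828-74953266 and P2 at chr9:74975936-74976262 on the plus strand. The transcript at Fam214a P2 has its own start codon, at 74976240 against 74953815, so the annotated proteins begin differently. 8430408G22Rik had 1 cluster, at chr6:116650605-116650800 on the plus strand, and Mafa, a gene of 1 exon, had 1 at chr15:75748143-75748330 on the minus strand, with its peak 95 bases upstream of the annotated start.

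The RefSeq promoter table (GRCm38.p6, the mm10 assembly) held windows of 300 bases, mostly upstream of the start, for 4 of the 5 genes, with no window at Lrch1 P2, Aifm2 P1 or Mafa. The 4 windows below are shown because they surround the CAGE peaks of promoters described next, 3 with matches to a searched motif and Aifm2 P2 with none. Capitals mark the matches, on either strand. The forkhead family, to which FOXO belongs, was searched as TGTTTAC. A second forkhead form, TATTTAC, was added after the 8430408G22Rik sequence had been seen. The E-box was searched as CACGTG, the CRE as TGACGTCA and the AP-1 site as TGANTCA. The antioxidant response element was searched as TGACNNNGC and the TATA box as TATAAA, and the CCAAT box and the glucocorticoid response element were searched as well.
8430408G22Rik, chr6:116650434-116650733, plus strand: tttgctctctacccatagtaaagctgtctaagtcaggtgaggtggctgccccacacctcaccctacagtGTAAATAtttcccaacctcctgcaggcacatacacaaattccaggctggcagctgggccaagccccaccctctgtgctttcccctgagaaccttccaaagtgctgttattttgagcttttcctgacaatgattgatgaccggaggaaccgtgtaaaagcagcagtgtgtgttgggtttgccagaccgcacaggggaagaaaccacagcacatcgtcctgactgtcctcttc
Aifm2 P2, chr10:61720399-61720698, plus strand: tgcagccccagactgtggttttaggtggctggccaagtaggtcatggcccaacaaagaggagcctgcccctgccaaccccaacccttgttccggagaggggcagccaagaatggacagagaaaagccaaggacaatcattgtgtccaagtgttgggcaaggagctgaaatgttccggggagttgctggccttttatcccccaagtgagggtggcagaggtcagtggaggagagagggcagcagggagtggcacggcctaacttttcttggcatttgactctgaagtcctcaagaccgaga
Fam214a P1, chr9:74952803-74953102, plus strand: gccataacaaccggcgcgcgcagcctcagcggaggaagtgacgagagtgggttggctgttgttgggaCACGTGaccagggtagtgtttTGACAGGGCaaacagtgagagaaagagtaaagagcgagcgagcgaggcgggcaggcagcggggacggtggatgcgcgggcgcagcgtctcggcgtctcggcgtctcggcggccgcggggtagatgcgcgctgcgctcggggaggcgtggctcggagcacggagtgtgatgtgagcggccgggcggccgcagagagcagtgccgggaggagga
Fam214a P2, chr9:74975861-74976160, plus strand: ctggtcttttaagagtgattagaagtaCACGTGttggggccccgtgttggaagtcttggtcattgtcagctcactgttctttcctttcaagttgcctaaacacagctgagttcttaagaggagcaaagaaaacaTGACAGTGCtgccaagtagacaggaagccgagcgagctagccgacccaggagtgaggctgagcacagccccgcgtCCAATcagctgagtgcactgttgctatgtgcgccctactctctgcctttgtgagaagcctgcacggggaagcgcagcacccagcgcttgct

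The 8430408G22Rik window held TATTTAC on the minus strand, printed as GTAAATA, starting at −179 from the CAGE peak. This heptamer occurred in 3.04% of the 32851 promoter windows and TGTTTAC in 3.65%. All 3 Fam214a windows, of which a second one around the P1 peak is not printed, held CACGTG, found in 7.15% of windows, and TGACNNNGC, found in 12.4%. In P1 these began at −42 and −21 from the peak, and in P2 at −231 and −124. CCAAT, held by 37.4% of windows, occurred at −49 in P2 and at −246 and −142 in the unprinted P1 window. None of the matches overlapped. The windows of Aifm2 P2 and Lrch1 P1 held none of the motifs. In CpG content the windows were unlike, with 4 CpG each at 8430408G22Rik and Aifm2 P2, 11 at Fam214a P2, 24 at Lrch1 P1 and 37 in the printed Fam214a P1 window, beside a median of 7 over all windows. A match to letters is a description of the sequence only.

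Library depth ranged from 18257657 to 39176649 tags in clusters in experiment #1 and from 9359994 to 20914855 in experiment #2, and the lowest count at any of the 8 promoters in any library was 8 tags. Levels are given as CPM, the tag counts scaled to a common library size, with TMM factors set within each experiment that correct for a few genes taking a large share of a library. Levels are therefore compared within an experiment. The library Mid 6 stood apart. It was the lowest of the 8 Mid libraries of experiment #1 at all 8 promoters, and it was the lowest at 58.5% of the 1659 clusters called higher in Mid than in Pre. At Lrch1 P1, Aifm2 P2 and Mafa the next Mid library was close (10.66 against 10.70, 4.87 against 5.11 and 1.35 against 1.37 CPM). Some Mid values are given with and without Mid 6, and all other Mid values of experiment #1 include it. Slow-fibre markers were abundant in all libraries (summed level of 10 genes at least 19576 CPM), and of the 8 T cell and 6 pancreatic islet markers none had a cluster. In bulk tissue, more RNA per cell and more cells of a type cannot be told apart.

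**Figure D1:**
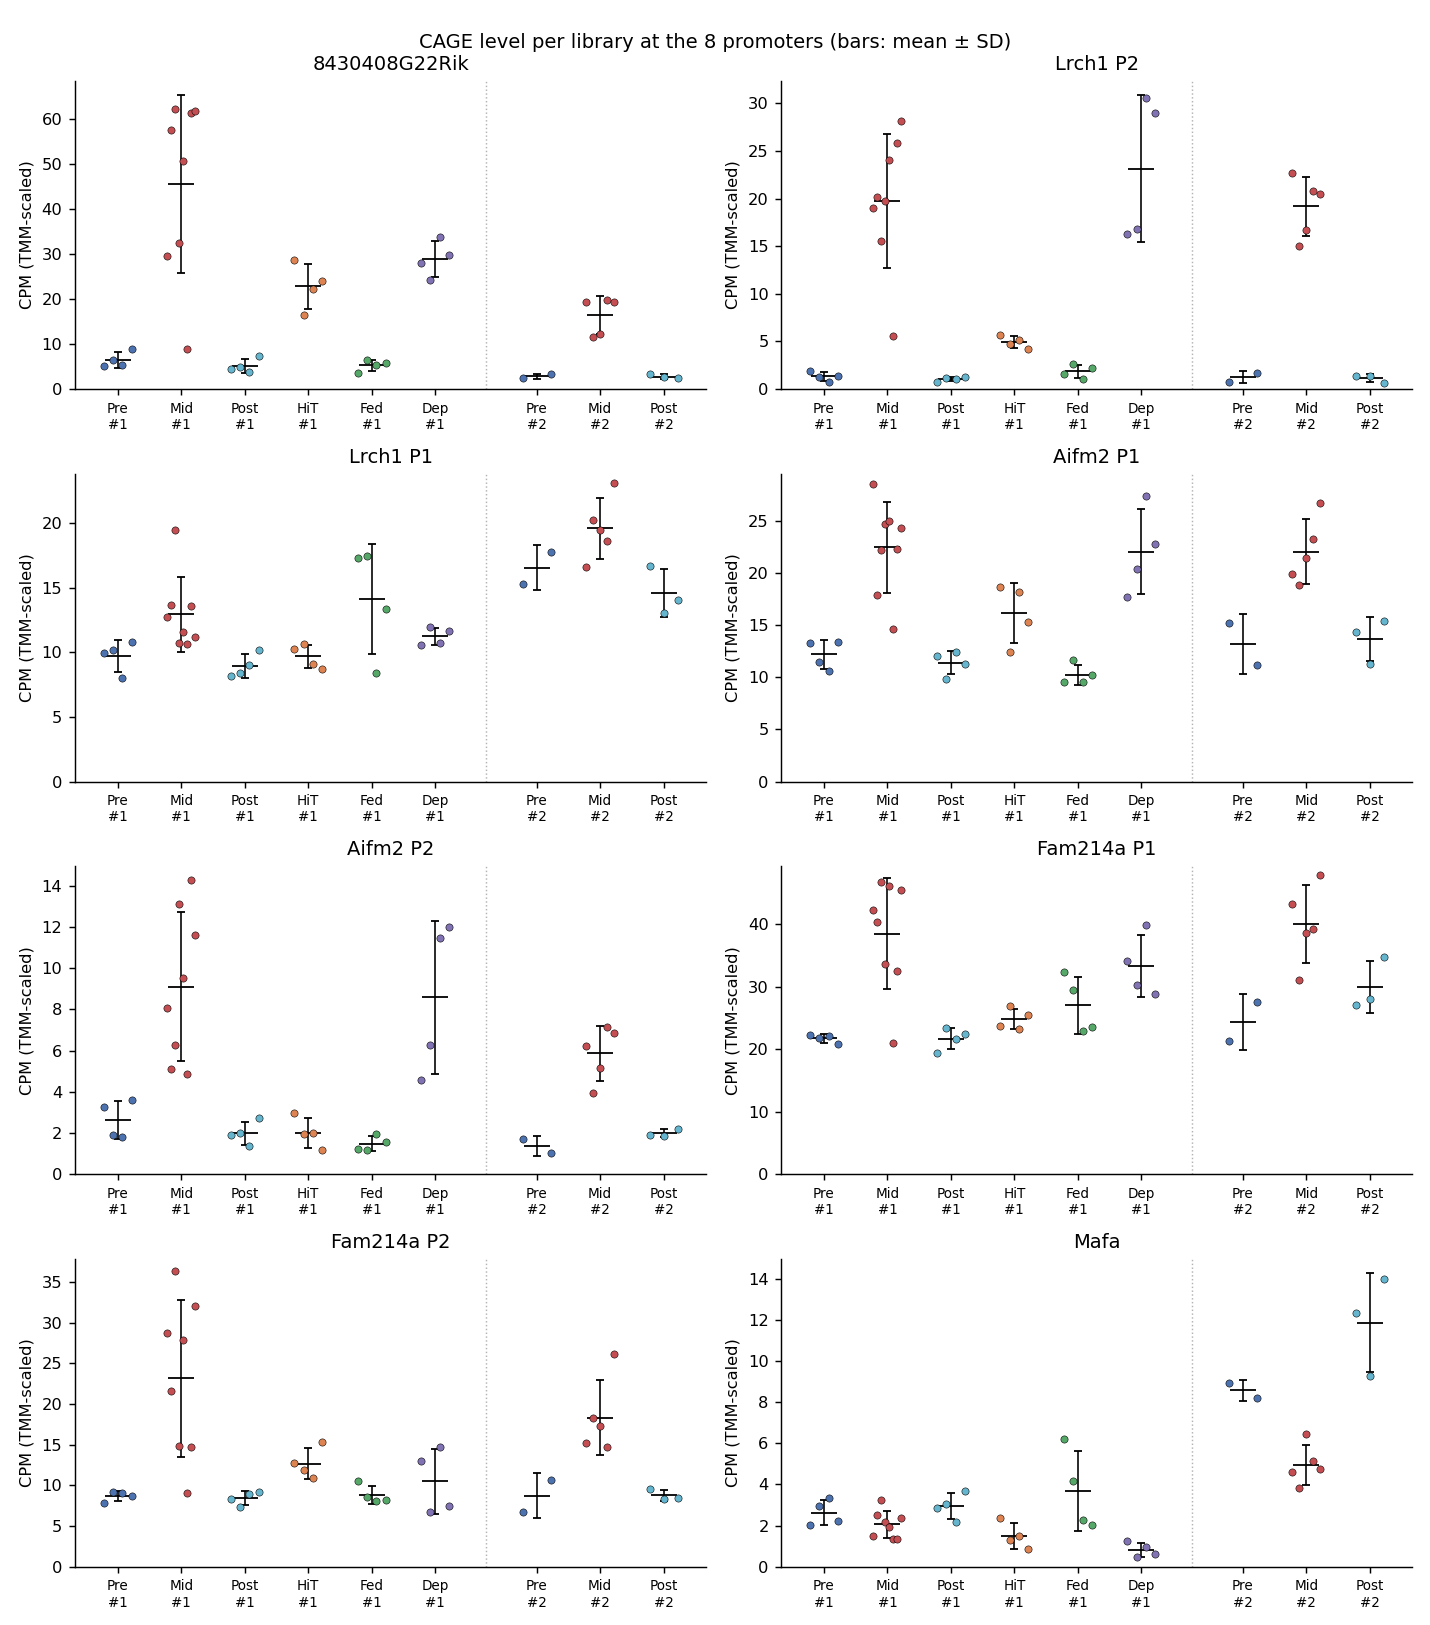
CPM (TMM-scaled, linear axes from 0) at each of the 8 promoters, by group and experiment; each point is 1 library and the bars are mean ± SD. At 8430408G22Rik and Lrch1 P2 the Dep libraries and the Mid libraries other than Mid 6 sit far above Pre, Post and Fed, and HiT has an intermediate mean, while Mafa is lowest in Dep (0.459 to 1.24 CPM).

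8430408G22Rik was high in all 3 groups of fasted mice and low in all groups with food. The 4 Pre libraries stood at 5.13, 6.50, 5.40 and 8.89 CPM, the Fed libraries at 3.62, 6.54, 5.34 and 5.72 CPM and the Post libraries at 4.44, 4.99, 3.74 and 7.41 CPM. In HiT the values were 28.6, 16.4, 22.1 and 24.1 CPM, and in Dep 27.9, 24.2, 33.9 and 29.8 CPM. Every HiT and every Dep library was above every Pre, Post and Fed library. Relative to Pre it rose in HiT by 1.81 ± 0.38 on the log2 scale (SE, edgeR quasi-likelihood test, Benjamini-Hochberg adjusted p = 0.00052) and in Dep by 2.16 ± 0.38 (adjusted p = 0.000132). HiT and Dep differed by 0.35 ± 0.36, which did not pass (adjusted p = 0.526, 95% interval −0.35 to 1.04). Against Fed it was higher by 2.09 ± 0.38 in HiT (adjusted p = 0.000109) and by 2.43 ± 0.38 in Dep (adjusted p = 2.85e-05). Fed minus Pre was −0.27 ± 0.38 (adjusted p = 0.698, 95% interval −1.03 to 0.48).

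In Mid, 8430408G22Rik ranged from 8.95 to 62.3 CPM with a median of 54.1 CPM. The 8.95 CPM of Mid 6 was just above the highest Pre value, and the 7 other Mid libraries started at 29.5 CPM, above every HiT library. The Mid mean was 45.6 ± 19.7 CPM (SD, n = 8), or 50.8 ± 14.1 CPM without Mid 6 (n = 7). The fitted Mid minus Pre difference was 2.81 ± 0.36 on the log2 scale, and 2.98 ± 0.25 without Mid 6. In experiment #2 the Mid libraries stood at 19.3, 11.6, 12.3, 19.7 and 19.4 CPM, the Pre libraries at 2.38 and 3.23 CPM and the Post libraries at 3.28, 2.57 and 2.43 CPM. The groups did not overlap there either, with a fitted difference from Pre of 2.55 ± 0.30.

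Lrch1 P2, the promoter inside the gene, ran from 0.730 to 30.6 CPM in experiment #1. Its Pre libraries stood at 1.92, 1.22, 0.730 and 1.37 CPM, its Post libraries at 0.766, 1.16, 1.05 and 1.26 CPM and its Fed libraries at 1.60, 2.65, 1.04 and 2.15 CPM. HiT was at 5.70, 4.72, 5.15 and 4.18 CPM and Dep at 16.3, 16.8, 30.6 and 29.001 CPM. The 3 levels were separate, with each HiT library above every fed library and each Dep library above every HiT library. Lrch1 P2 rose by 1.90 ± 0.38 on the log2 scale in HiT (adjusted p = 0.000335) and by 4.13 ± 0.38, or 17.5-fold, in Dep (adjusted p = 4.99e-08) relative to Pre. Dep exceeded HiT by 2.22 ± 0.34 (adjusted p = 2.36e-05). Fed minus Pre was 0.50 ± 0.40 (adjusted p = 0.443).

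The Mid libraries ranged from 5.55 to 28.2 CPM at Lrch1 P2, with a median of 19.98 CPM, and overlapped Dep. The lowest value was again Mid 6, which fell inside the HiT range, and the next lowest was 15.5 CPM. The fitted Mid minus Pre difference was 3.90 ± 0.36, and 4.05 ± 0.27 without Mid 6. In experiment #2 the values were 22.7, 15.1, 16.7, 20.8 and 20.5 CPM in Mid, 0.761 and 1.66 CPM in Pre and 1.41, 1.34 and 0.626 CPM in Post, and Mid lay apart from both.

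Lrch1 P1, the promoter of the annotated coding transcripts, behaved otherwise. It stood at 9.95, 10.2, 7.99 and 10.8 CPM in Pre, at 10.3, 10.7, 9.10 and 8.75 CPM in HiT and at 10.6, 11.99, 10.7 and 11.7 CPM in Dep, and these ranges overlapped. Relative to Pre, HiT differed by −0.01 ± 0.18 (adjusted p = 0.987, 95% interval −0.36 to 0.35) and Dep by 0.21 ± 0.18 (adjusted p = 0.435, 95% interval −0.15 to 0.57). Its highest mean was in Fed, with 17.3, 17.4, 8.40 and 13.4 CPM, and HiT was below Fed by −0.54 ± 0.18 (adjusted p = 0.0198). That call was lost when Fed 1 (adjusted p = 0.0819) or Fed 2 (0.0866) was left out, or when only the compared groups were fitted (0.072). Fed minus Pre was 0.53 ± 0.18 and did not pass (adjusted p = 0.0571), though it passed with DESeq2 (adjusted p = 0.0416). Mid ranged from 10.7 to 19.5 CPM with a median of 12.1 CPM, and the fitted Mid minus Pre difference was 0.41 ± 0.16 in experiment #1 and 0.25 ± 0.14 in experiment #2.

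The share of Lrch1 tags from P2 therefore differed widely between groups. It averaged 11.6 ± 3.28% (SD, n = 4) in Pre, 10.5 ± 1.46% in Post and 11.6 ± 2.43% in Fed. It averaged 33.7 ± 2.63% in HiT, 66.1 ± 7.75% in Dep and 58.5 ± 12.7% in Mid (n = 8). The lowest Mid share was 34.2%, inside the HiT range of 30.7 to 36.2%. In experiment #2 the share was 49.3 ± 5.94% in Mid (n = 5), 6.63 ± 2.68% in Pre (n = 2) and 7.10 ± 2.58% in Post (n = 3). In the 4 Dep libraries and in 6 of the 8 Mid libraries of experiment #1, more Lrch1 tags came from the promoter inside the gene than from that at its 5′ end.

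**Figure D2:**
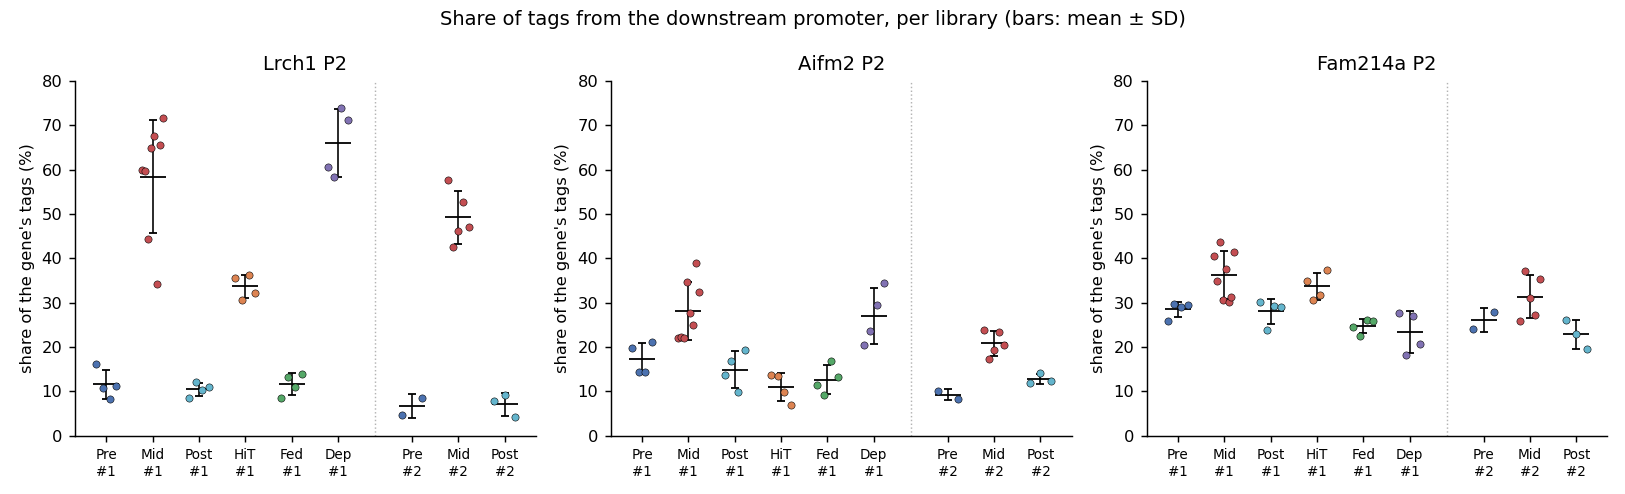
Share of a gene's tags that came from its downstream promoter P2 (percent, axis from 0 to 80), per library, by group and experiment, with bars for mean ± SD. The Lrch1 share is 58.4 to 74.0% in Dep against 8.37 to 16.2% in Pre, the Aifm2 share has its lowest mean of experiment #1 in HiT (7.01 to 13.6%), and the Fam214a share is higher in Mid (30.1 to 43.7%) than in Dep (18.2 to 27.7%).

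Both promoters of Aifm2 were high in Dep, and they parted in HiT. At P1 the Pre libraries stood at 13.3, 11.46, 10.6 and 13.4 CPM, HiT at 18.7, 12.4, 18.2 and 15.3 CPM, Fed at 9.59, 11.6, 9.54 and 10.2 CPM and Dep at 17.7, 20.4, 27.4 and 22.8 CPM. Dep lay above Pre and Fed in every library, beside 15.6% and 16.6% of all clusters, and overlapped HiT. Aifm2 P1 rose in Dep by 0.86 ± 0.16 relative to Pre (adjusted p = 0.000349). In HiT the difference was 0.41 ± 0.16 and just missed the threshold (adjusted p = 0.0582). HiT exceeded Fed by 0.66 ± 0.17 (adjusted p = 0.00239), a call lost without TMM scaling (adjusted p = 0.142). Dep exceeded HiT by 0.45 ± 0.16 (adjusted p = 0.0419), a call that was lost when HiT 2 (adjusted p = 0.161), HiT 4 (0.0692), Dep 3 (0.168) or Dep 4 (0.0782) was left out, and also without TMM scaling (0.26) or with only the compared groups fitted (0.0761).

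At Aifm2 P2 the Pre libraries stood at 3.27, 1.91, 1.79 and 3.60 CPM, HiT at 2.95, 1.93, 2.01 and 1.16 CPM, Fed at 1.23, 1.17, 1.93 and 1.57 CPM and Dep at 4.56, 6.29, 11.45 and 12.02 CPM. Every Dep library was above every Pre, HiT and Fed library, beside 15.6%, 11.8% and 16.6% of all clusters, and HiT overlapped Pre. The promoter rose in Dep by 1.69 ± 0.37 relative to Pre (adjusted p = 0.00116) and by 2.07 ± 0.37 relative to HiT (adjusted p = 0.00016). In HiT it differed from Pre by −0.38 ± 0.37 (adjusted p = 0.459, 95% interval −1.11 to 0.35). Dep and HiT were both fasted without torpor, and they differed in ambient temperature and in touching, which cannot be told apart here.

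In Mid, Aifm2 P1 ranged from 14.7 to 28.6 CPM (median 23.3 CPM) and P2 from 4.87 to 14.3 CPM (median 8.81 CPM), both close to Dep. The fitted Mid minus Dep differences were 0.03 ± 0.14 at P1 and 0.09 ± 0.30 at P2, and the Mid minus Pre differences were 0.88 ± 0.15 and 1.78 ± 0.34. In experiment #2, P2 stood at 6.23, 3.95, 5.14, 7.13 and 6.85 CPM in Mid against 1.71 and 1.01 CPM in Pre, and P1 averaged 22.05 ± 3.10 CPM (SD, n = 5) against 13.2 ± 2.88 CPM (n = 2). Neither promoter overlapped between Mid and Pre in either experiment. Every Mid library was above every Pre library at 7.54% of all clusters in experiment #1. In experiment #2, with 2 Pre libraries, the same held at 1619 of 10816 clusters. P2 supplied 28.1 ± 6.53% of Aifm2 tags in Mid and 27.02 ± 6.23% in Dep, against 17.4 ± 3.57% in Pre and 11.01 ± 3.16% in HiT.

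Fam214a P1 was the most abundant of the 8 promoters in Pre and moved least among those that passed a test in Dep. It stood at 22.3, 21.7, 22.1 and 20.7 CPM in Pre, at 23.7, 26.8, 23.2 and 25.5 CPM in HiT, at 32.3, 29.4, 22.8 and 23.6 CPM in Fed and at 34.1, 30.3, 39.9 and 28.7 CPM in Dep. HiT, Fed and Dep each lay above Pre in every library, beside 18.5%, 9.08% and 15.6% of all clusters, and Dep overlapped Fed. Only Dep passed against Pre, with a rise of 0.62 ± 0.17 (adjusted p = 0.00803), and this call was lost without TMM scaling (0.46, adjusted p = 0.175). The differences from Pre were 0.19 ± 0.17 in HiT (adjusted p = 0.399) and 0.31 ± 0.17 in Fed (adjusted p = 0.237). Dep minus HiT was 0.42 ± 0.17 and did not pass (adjusted p = 0.063), though it did with DESeq2 (adjusted p = 0.0396).

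Fam214a P2, with its own start codon, stood at 7.80, 9.14, 9.01 and 8.64 CPM in Pre, at 12.7, 11.9, 10.8 and 15.3 CPM in HiT and at 13.05, 6.75, 14.7 and 7.48 CPM in Dep. HiT was above Pre in every library, beside 18.5% of all clusters, whereas the Dep libraries lay on both sides of the Pre range. Neither comparison passed, with 0.55 ± 0.30 in HiT (adjusted p = 0.163) and 0.29 ± 0.30 in Dep (adjusted p = 0.515). When only the HiT and Pre libraries were fitted, the HiT difference passed (0.53, adjusted p = 0.0098).

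Mid was the highest group at both Fam214a promoters. P1 ranged from 20.96 to 46.7 CPM with a median of 41.3 CPM, and P2 from 9.03 to 36.3 CPM with a median of 24.7 CPM. Mid 6 was the lowest at both and lay inside the Pre range, and the 7 other Mid libraries were above every Pre library at both promoters, with minima of 32.5 and 14.8 CPM. At P2 those 7 were also above every Dep library. The fitted Mid minus Dep difference at P2 was 1.13 ± 0.27 (1.25 ± 0.22 without Mid 6), beside 0.21 ± 0.15 at P1. Among the 6 promoters that were higher in Mid, Fam214a P2 had the largest fitted log2 difference between Mid and Dep. Over all 8 promoters that of Mafa was larger, at 1.31 ± 0.35. Every Mid library was above every Dep library at Mafa, beside 0.947% of all clusters. In experiment #2, P2 stood at 15.2, 18.3, 17.3, 14.7 and 26.1 CPM in Mid, at 6.75 and 10.7 CPM in Pre and at 9.52, 8.34 and 8.45 CPM in Post. There, P1 averaged 40.0 ± 6.21 CPM in Mid (SD, n = 5), 24.3 ± 4.42 CPM in Pre (n = 2) and 29.9 ± 4.19 CPM in Post (n = 3).

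Mafa went against the label. The Pre libraries stood at 2.02, 2.95, 3.33 and 2.23 CPM, and the Mid libraries ranged from 1.35 to 3.24 CPM with a median of 2.06 CPM, so no Mid library exceeded the highest Pre library. The lowest group was Dep, at 1.24, 0.459, 0.954 and 0.606 CPM. HiT stood at 2.38, 1.28, 1.48 and 0.855 CPM, and Fed at 6.23, 4.16, 2.27 and 2.02 CPM. Mafa fell by 1.67 ± 0.38 on the log2 scale in Dep relative to Pre (adjusted p = 0.00205) and Dep minus Fed was −2.14 ± 0.39 (adjusted p = 0.000138). HiT was below Fed by −1.27 ± 0.37 (adjusted p = 0.00764), a call lost without Fed 1 (−0.89, adjusted p = 0.0574). HiT minus Pre was −0.80 ± 0.37 and did not pass (adjusted p = 0.0988), and neither did Fed minus Pre at 0.47 ± 0.36 (adjusted p = 0.431). The Dep values rest on 10 to 33 tags per library.

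In experiment #2 Mafa stood at 8.94 and 8.20 CPM in Pre, at 4.62, 3.83, 6.46, 5.12 and 4.76 CPM in Mid and at 12.3, 9.26 and 14.01 CPM in Post. Every Mid library was below every Pre library and every Post library, beside 16.3% and 11.4% of all clusters, respectively. The fitted Mid minus Pre difference was −0.79 ± 0.21 in experiment #2 and −0.36 ± 0.31 in experiment #1. Large Maf factors are known in muscle as drivers of the fast IIb myosin gene Myh4, so the fast-fibre markers are given beside these values. Their summed level (8 of 8 markers measured) was 16464 to 20455 CPM in Pre and 15574 to 20520 CPM in Dep of experiment #1, and in experiment #2 26382 to 30812 CPM in Pre, 26062 to 35008 CPM in Mid and 26451 to 34016 CPM in Post. Myh4 itself varied from 4.66 to 438 CPM among the 4 Pre libraries and from 10.96 to 265 CPM among the Dep libraries. It was at 50.3 to 1674 CPM in Fed and at 2.62 to 6.51 CPM in HiT. Between Mafa and the summed markers, the Spearman rho was 0.06 over the 28 libraries, 0.13 outside Mid and −0.02 in experiment #2. The part of the fast-fibre markers in the Mafa values was not tested.

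Calls over the 8 promoters are given beside those over all clusters. In HiT minus Pre, 2 of 8 were called higher and none lower, beside 18.5% of the 10776 clusters tested called higher and 14.9% lower. Of 8 promoters, 2 is near that background. In Dep minus Pre, 5 were called higher and 1 lower, beside 13.7% and 12.1%. In Dep minus HiT, 3 were called higher, beside 11.3% of clusters, and none lower, beside 15.3%. In HiT minus Fed, 3 were called higher and 2 lower, beside 43.2% of all clusters called, and in Dep minus Fed 4 and 1, beside 38.6%. The direction of the calls over all clusters leaned on the scaling. Calls of higher level made up 55.4% in HiT minus Pre, 53.1% in Dep minus Pre, 53.8% in HiT minus Fed and 48.2% in Dep minus Fed. Without TMM factors, which moved the median of all clusters by −0.17, −0.18, −0.22 and −0.22 on the log2 scale, they made up 29.6%, 25.3%, 23.7% and 17.1%.

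**Figure D3:**
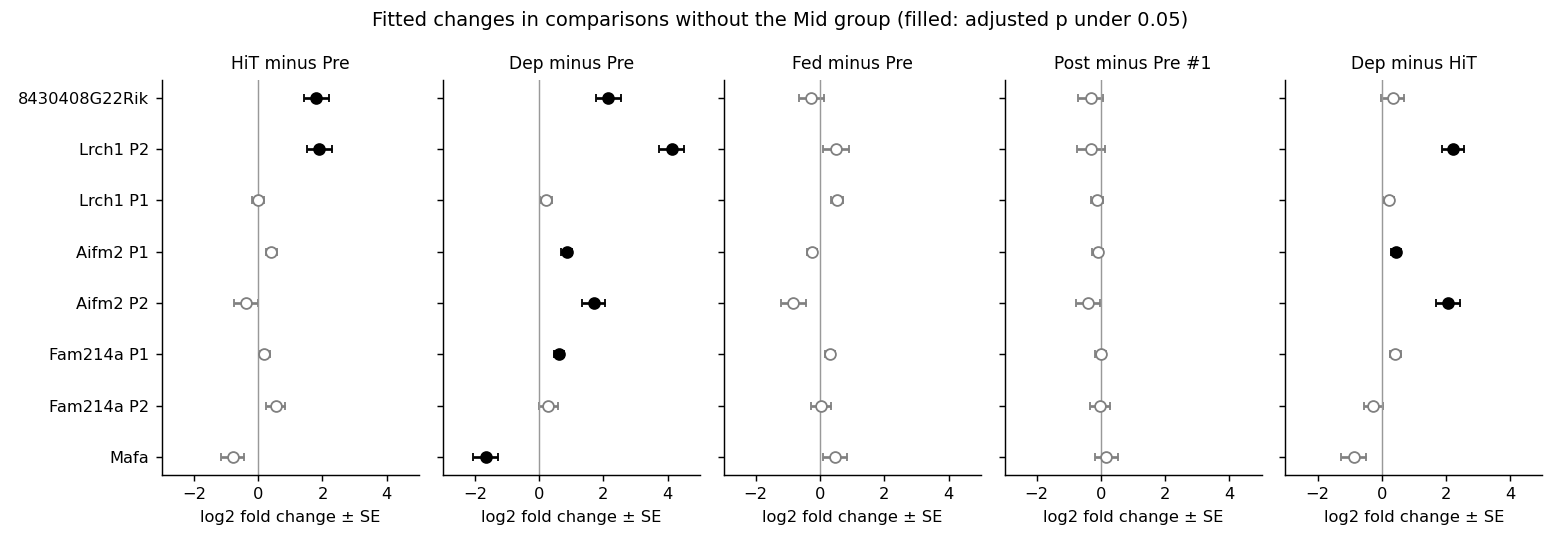
Fitted log2 fold change ± SE of each promoter in 5 comparisons without the Mid group, filled where the adjusted p is under 0.05. In Dep minus Pre 6 of the 8 promoters are filled (Mafa to the left), in HiT minus Pre only 8430408G22Rik and Lrch1 P2, and in Fed minus Pre and Post minus Pre of experiment #1 none.

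After refeeding, in Post minus Pre, none of the 8 promoters was called in experiment #1, beside 1.85% of clusters, or in experiment #2, beside 0.111% of 10816 clusters. None reached an unadjusted p under 0.05 or was called by DESeq2 in either. The fitted differences lay between −0.40 and 0.16 in experiment #1, and the 95% interval of 8430408G22Rik was −1.08 to 0.43 and that of Lrch1 P2 was −1.14 to 0.52. In experiment #2 they lay between −0.17 and 0.54, and every Post library was above every Pre library at Aifm2 P2 (0.54 ± 0.35) and Mafa (0.47 ± 0.24), or 2 of the 8, beside 13.7% of clusters. In experiment #2 all Pre libraries were run on a different sequencing lane from all Post libraries, so that lane and group cannot be told apart. In Fed minus Pre none was called, beside 5.88% of clusters called higher and 5.32% lower. There, 2 had an unadjusted p under 0.05 (Lrch1 P1 and Aifm2 P2), and DESeq2 called Lrch1 P1.

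Every Mid library was above every Pre library at 4 of the 8 promoters in experiment #1 (7.54% of all clusters), and at 6 of 8 without Mid 6 (11.6% of all clusters), which adds both Fam214a promoters. In experiment #2, with 2 Pre libraries, it held at 6 of the 8, beside 1619 of 10816 clusters, and 1 of the 8, Mafa, lay below. The counts above Pre follow from how the genes were chosen and describe them only.

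Macrophage markers moved with the HiT group. Their summed level (7 of 8 with a cluster, Adgre1 without) was 170.4 to 384.6 CPM in HiT, against 58.3 to 88.6 CPM in Pre, 55.8 to 84.1 CPM in Mid and 44.5 to 106.95 CPM in Dep. Their part in the HiT values of 8430408G22Rik and Lrch1 P2 was not tested. In Dep, 1 library carried neutrophil markers at 133 CPM, where the group's median was 0.838 CPM.

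Among themselves the promoters varied together to unequal degrees. Over the 28 libraries of experiment #1, the Pearson r of log2 CPM between 8430408G22Rik and Lrch1 P2 was 0.92, between Lrch1 P2 and Aifm2 P1 0.92 and between 8430408G22Rik and Aifm2 P2 0.77. Outside Mid (20 libraries) the same pairs gave 0.89, 0.90 and 0.64. The points share libraries and conditions, and the values are descriptions. In HiT 8430408G22Rik was at 16.4 to 28.6 CPM with Aifm2 P2 at 1.16 to 2.95 CPM. Fam214a P1 and P2 had an r of 0.84 over the 28 libraries, 0.96 within the 8 Mid libraries and 0.42 outside them. Mafa had an r of −0.55 with Lrch1 P2 over the 28, and of −0.78 outside Mid.

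**Figure D4:**
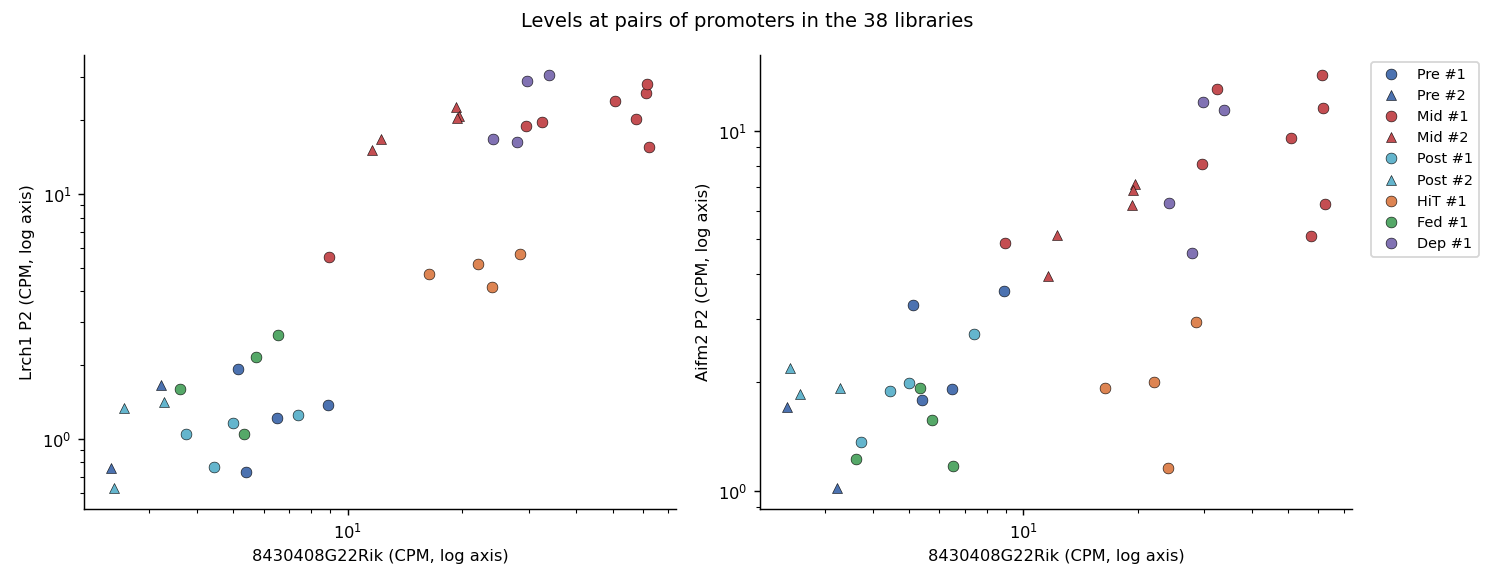
Level of Lrch1 P2 (left) and Aifm2 P2 (right) against 8430408G22Rik in the 38 libraries, both axes log-scaled CPM, coloured by group (circles experiment #1, triangles experiment #2). The 4 HiT libraries have 8430408G22Rik at 16.4 to 28.6 CPM but Lrch1 P2 at no more than 5.70 CPM and Aifm2 P2 at no more than 2.95 CPM, below the Dep libraries in both panels.

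The clusters of other genes with the most similar profiles were taken by Pearson r of log2(CPM + 0.5) over the 28 libraries. For 8430408G22Rik these were Cebpd, a stress-induced transcription factor (r = 0.98), Sesn1, a sestrin (0.97), and Sorbs3 (0.96), and in experiment #2, over 10 libraries, their r was 0.99, 0.97 and 0.97. For Aifm2 P1 they were Pttg1ip (0.95), Trafd1 (0.94) and Cdkn1a, the cell cycle inhibitor p21 (0.94). For Fam214a P1 they were Mylip (0.91), Zfyve27 (0.90) and Tfdp2 (0.90). For Lrch1 P1 they were Rere (0.88), Lama5 (0.88) and Lncpint (0.87), and in experiment #2 Rere and Lama5 were at 0.48. For Mafa they were Rev3l (0.90), Cuedc1 (0.85) and Tinf2 (0.85), and Cuedc1 fell away to 0.12 in experiment #2. Lrch1 P2, added after its values were seen, was most like Ell (0.98), Mafk (0.98) and Ampd3 (0.97), with 0.97, 0.94 and 0.97 in experiment #2. Aifm2 P2 was most like Dusp18 (0.92), Gbp6 (0.92) and Musk (0.92), which in experiment #2 were at 0.76, 0.84 and 0.46. Fam214a P2 was most like Spsb1 (0.88), Mylip (0.87) and Arrdc2 (0.87), with 0.75, 0.64 and 0.76 in experiment #2. Both promoters were also added after their values were seen, and outside Mid the r of Mylip and Arrdc2 with Fam214a P2 was 0.60.

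Relatives of the 5 genes were measured where they had a cluster. Fam214b, the paralog of Fam214a, had at its main promoter (peak chr4:43040160) 18.3 ± 1.31 CPM in Pre (SD, n = 4), 40.8 ± 4.54 CPM in HiT, 43.1 ± 1.74 CPM in Dep and 52.3 ± 12.7 CPM in Mid (n = 8). Relative to Pre it rose by 1.16 ± 0.20 on the log2 scale in HiT (adjusted p = 5.85e-05), 1.23 ± 0.20 in Dep (adjusted p = 4.65e-05) and 1.51 ± 0.18 in Mid (adjusted p = 1.08e-06), and in Mid of experiment #2 by 1.13 ± 0.25 (adjusted p = 0.0208). Its second cluster (peak chr4:43046205) differed from Pre by −0.21 ± 0.14 in HiT (adjusted p = 0.26), 0.42 ± 0.14 in Dep (adjusted p = 0.0271) and 0.41 ± 0.12 in Mid (adjusted p = 0.0113), and by 0.02 ± 0.16 in Mid of experiment #2 (adjusted p = 0.956). Lrch3 stayed between 28.3 and 47.8 CPM in Pre, HiT, Fed, Dep and Mid and passed in neither Mid minus Pre (0.14 ± 0.10, adjusted p = 0.294) nor HiT minus Pre (adjusted p = 0.42). Aifm1, the mitochondrial relative of Aifm2, differed by −0.01 ± 0.08 in Mid minus Pre (adjusted p = 0.971). Maf, another large Maf factor, fell in Mid by 0.74 ± 0.21 (adjusted p = 0.00878), a call lost without Pre 2 (adjusted p = 0.0727). Lrch2, Lrch4, Aifm3 and Nrl had no cluster.

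Genes of the pathways named above were counted in lists that leave the 5 genes out, with 1 cluster per gene, and tested across all 10776 clusters. In Mid minus Pre of experiment #1, 15.4% of all clusters were called higher and 14.8% lower, or 4.96% and 8.57% without TMM factors. In HiT minus Pre these shares were 18.5% and 14.9%, or 5.42% and 12.9% without TMM factors. Of the FOXO and fasting genes, 24 of 27 measured rose and none fell, with a median of 1.14 against 0.01 over all clusters. The largest were Ppargc1a, the coactivator of mitochondrial genes (4.78 ± 0.67, adjusted p = 7.07e-06), Pdk4, which blocks pyruvate oxidation (3.42 ± 0.29, adjusted p = 2.05e-08), Ddit4, an inhibitor of mTORC1 (2.65 ± 0.43, adjusted p = 5.07e-05), and Angptl4, an inhibitor of lipoprotein lipase (2.62 ± 0.45, adjusted p = 7.55e-05). Mid 6 was the lowest Mid library at all 24 of the genes that rose. The study had already reported Ppargc1a, Foxo1, Trim63 and Fbxo32 as up-regulated in torpor, so the list was not independent of these data. In HiT minus Pre, 13 rose and 2 fell, beside 18.5% and 14.9% of all clusters, or 7 rose without TMM factors, beside 5.42%. The largest were Angptl4 (3.66 ± 0.49, adjusted p = 3.31e-06) and Pdk4 (3.38 ± 0.31, adjusted p = 1.24e-08).

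Of the 29 measured genes of ferroptosis defence and iron handling, 8 rose in Mid and 1 fell, and 3 rose without TMM factors, beside 4.96% of all clusters. Hmox1, the haem-degrading enzyme, rose by 4.59 ± 0.83 (adjusted p = 0.000163), with 10.6 to 601 CPM in Mid against 4.38 to 6.55 CPM in Pre. Gclm and Gclc, the subunits of the enzyme that starts glutathione synthesis, rose by 1.31 ± 0.20 (adjusted p = 1.77e-05) and 0.89 ± 0.24 (adjusted p = 0.00702), the latter lost without TMM factors (adjusted p = 0.0551). Tfrc, the transferrin receptor, fell by 2.30 ± 0.18 (adjusted p = 7.94e-09). In HiT 8 of the list rose and 9 fell, beside 18.5% and 14.9% of all clusters, or 3 and 7 without TMM factors, among them Hmox1 (3.26 ± 0.82, adjusted p = 0.00318) and Tfrc (−3.10 ± 0.23, adjusted p = 4.45e-10).

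Of 15 measured Maf factors and fast myosin genes, 4 rose in Mid and 2 fell, or 4 with DESeq2. The small Maf factors, which lack the activation domain of Mafa, rose, Mafk by 1.52 ± 0.14 (adjusted p = 2.60e-08) and Maff by 1.40 ± 0.31 (adjusted p = 0.00117). In HiT 2 rose and 4 fell, beside the same 18.5% and 14.9%, or 1 and 3 without TMM factors. Myh4 was lower there by −5.24 ± 1.47 (adjusted p = 0.00735). Its HiT libraries, at 2.62 to 6.51 CPM, overlapped the Pre libraries, which spread from 4.66 to 438 CPM. Of 12 measured genes of the LRCH family and the DOCK to CDC42 pathway, 2 rose in Mid and 3 fell, and none rose without TMM factors. Cdc42ep2 and Cdc42ep3, effectors of CDC42, fell by 0.87 ± 0.13 (adjusted p = 2.19e-05) and 0.67 ± 0.10 (adjusted p = 1.21e-05). Cdc42ep4 and Wasl rose by 0.44 ± 0.14 (adjusted p = 0.0177) and 0.33 ± 0.08 (adjusted p = 0.002), and both calls were lost without TMM factors (adjusted p = 0.207 and 0.296). The call of Cdc42ep4 was also lost without Pre 2 (0.0521) or Pre 3 (0.076). In HiT 2 rose and 3 fell, or none and 3 without TMM factors, beside 18.5% and 14.9% of all clusters, or 5.42% and 12.9%. Dock8 itself had no cluster.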

How the data were processed

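Soleus RNA of 38 mice was profiled by nAnT-iCAGE. The submitters' processing notes name mm10 (GRCm38), BWA and HISAT2, without versions. The table deposited by the authors holds a count of rescued tags per cluster and library, beside TPM values that the authors computed from the tags. The counts were used for all tests and levels, and the TPM values only to check the libraries. Groups were taken from the sample labels, with 1 animal per library.

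Clusters with any tag were fitted with edgeR 4.0.16 (limma 3.58.1, R 4.3.3), with TMM factors, a term for group and quasi-likelihood F tests, in 1 fit for the 28 libraries of experiment #1 (10776 clusters) and another for the 10 of experiment #2 (10816 clusters). P-values were adjusted by the Benjamini-Hochberg method over all clusters, with a threshold of 0.05, and 95% intervals are the estimate ± 1.96 SE. The 8 promoters were those of the 5 genes by position. Named others were, per list, up to 4 genes with the largest change past the threshold in Mid minus Pre and up to 2 in HiT minus Pre, relatives of the 5 genes, and the 3 clusters most like each gene's main promoter over the 28 libraries. The members and the lists were chosen with earlier results of these data known. On data simulated for HiT minus Pre, 88.5% of 200 clusters changed 2-fold were recovered among 10774, with 7 false calls, and for Post minus Pre of experiment #2 60.0% among 10816, with 5. No pair of libraries within a group was a duplicate. The alternatives were DESeq2 1.42.0, a likelihood ratio test, other scalings, a filter on low counts, only the compared groups, all 38 libraries with a term for experiment, leaving out each library in turn, and a block for replicate number.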

Additional observations from a re-analysis of the deposited data

Results flagged for a closer look

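At Lrch1 P1, 1 of the 8 Mid libraries of experiment #1 stood apart from the rest. Mid 3 was at 19.5 CPM, and the others lay between 10.7 and 13.7 CPM. Its gap to the nearest library was 0.66 of the group's range, above Dixon's 95% critical value of 0.526. Of the 56 sets of 4 to 10 libraries examined this was the only one past its limit. Chance gives about 1 in 20, or 2.8 of the 56.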

How the results depend on the processing

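The rises of 8430408G22Rik and Lrch1 P2 in HiT and in Dep relative to Pre kept their direction and call in the 28 fits with a library left out and in the 8 other settings. Depth limits Mafa and the fed values of Lrch1 P2 and Aifm2 P2 most, which rest on few tags. In the comparisons below the cause of a change was not tested, apart from leaving out libraries. With all 38 libraries in 1 fit, HiT minus Pre called 4 of the 8 promoters, adding Aifm2 P1 (adjusted p = 0.0407) and Mafa (0.0364). Fed minus Pre called 1 promoter, Lrch1 P1, with DESeq2, the likelihood ratio test or all 38 libraries, and 0 to 1 with a library left out. HiT minus Fed called 3 to 5 with a library left out, the lowest without Fed 1. Without TMM factors the number of clusters called over the whole table was 1974 in HiT minus Pre, 1444 in Dep minus Pre, 6 in Fed minus Pre, 21 in Post minus Pre of experiment #1, 1108 in Dep minus HiT and 2961 in HiT minus Fed, against 3604, 2783, 1207, 199, 2861 and 4657. Fed minus Pre called 631 with only those groups fitted, and 192 (without Fed 2) to 1973 (without Fed 3) with a library left out. Post minus Pre of experiment #1 called 310 with DESeq2, 731 with all 38 libraries and 67 (without Post 1) to 240 (without Mid 6) with a library left out. Post minus Pre of experiment #2 called 12, 169 with DESeq2 and 0 to 19 with a library left out.

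Differences near 0 turned their sign. With all 38 libraries, Fam214a P2 in Fed minus Pre was −0.031, Aifm2 P1 in Mid minus Dep was −0.015, and in Post minus Pre of experiment #1 Fam214a P1 was 0.14 and Fam214a P2 0.015. With only the compared groups Fam214a P1 was 0.018 there. In Post minus Pre of experiment #2, 8430408G22Rik was 0.0078 with DESeq2 and 0.022 without TMM factors. With a library left out, the ranges that crossed 0 were −0.21 to 0.24 for 8430408G22Rik, −0.14 to 0.30 for Aifm2 P1, −0.53 to 0.59 for Lrch1 P2 and −0.28 to 0.39 for Fam214a P2 in Post minus Pre of experiment #2. They were −0.038 to 0.064 for Fam214a P1 and −0.078 to 0.032 for Fam214a P2 in Post minus Pre of experiment #1, −0.068 to 0.15 for Aifm2 P1 and −0.12 to 0.30 for Aifm2 P2 in Mid minus Dep, −0.062 to 0.067 for Fam214a P2 in Fed minus Pre and −0.088 to 0.050 for Lrch1 P1 in HiT minus Pre.

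The replicate numbers of the labels did not pair the libraries. Over 60 same-number pairs of different groups the median correlation of deviations was −0.04, and 19 were over 0.1. Over 260 other pairs the median was 0.03, and 95 were over 0.1. With the replicate number as a block, Aifm2 P1 passed in HiT minus Pre (adjusted p = 0.0451), Fam214a P1 passed in Dep minus HiT (0.0111) and in Dep minus Fed (0.0449), and Post minus Pre of experiment #2 called 0 clusters. In that replicate block fit, signs turned for Fam214a P1 in Post minus Pre of experiment #1 (0.0016), Lrch1 P1 in Mid minus Fed (0.024), Aifm2 P2 in Mid minus Dep (−0.11), and, in Post minus Pre of experiment #2, Lrch1 P2 (0.26), Aifm2 P1 (−0.038) and 8430408G22Rik (0.10).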
